A study of Mus musculus with 8 samples.

Results

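Endothelial cells line blood vessels, and the angiogenic factors are the secreted proteins and receptors that make those vessels sprout, branch and mature. The data describe 32 such mouse genes, picked by name: 11 surface and junction markers of endothelium, 4 ligands of the vascular endothelial growth factor (VEGF) family, 5 VEGF receptors and co-receptors, 5 genes grouped here under angiopoietins and Tie receptors, apelin with its receptor, 3 Notch genes and 2 SOX transcription factors. They were matched by gene ID among the 41591 genes of the count tables, and all 32 had a row. The study measured RNA in whole ovaries of female mice labelled C57BL/6 and about 3 weeks old. Every mouse had received 4 IU of equine chorionic gonadotropin (eCG), which drives follicles to grow. A dose of 5 IU of the human gonadotropin hCG, which acts as the ovulatory surge of luteinizing hormone, followed after 48 h, and the ovaries were taken 12 h after that dose. The 4 control mice were littermates labelled wild-type and Pgr-Cre positive, so they carried the Cre recombinase themselves. The 4 mice of the other group, here called DKO, were conditional double knockouts of Insr and Igf1r, the receptors for insulin and insulin-like growth factor 1.

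Pgr-Cre is driven by the progesterone receptor gene, which granulosa cells of ovulatory follicles turn on after the luteinizing hormone surge. The labels do not name the Cre of the DKO mice, and they do not say whether a library came from 1 ovary or from several. Endothelial cells are a minor share of a whole ovary, and in bulk samples fewer cells of a type and less RNA per cell cannot be told apart. The p-values measure the spread between the 8 libraries.

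Follicles before ovulation have vessels outside their wall and none among the granulosa cells. After the surge the wall opens, endothelial cells grow into the granulosa layer, and the corpus luteum that forms becomes one of the most densely vascular tissues of the body. VEGF-A from granulosa and luteal cells drives this growth through the receptor Kdr on endothelium, while Flt1 binds VEGF-A tightly with weak signalling. Angiopoietin 1 (Angpt1) holds vessels stable through the receptor Tek (also called Tie2), and angiopoietin 2 (Angpt2) mostly opposes it. Dll4 on the leading tip cell signals through Notch receptors and restrains sprouting in its neighbours, and apelin (Apln) acts through the receptor Aplnr on vein and sprouting endothelium.

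The 250 bases before the transcription start are shown for 4 of the genes on which the results turn: the ligand Vegfa, both Tie receptors and the Notch ligand Dll4. The sequences come from RefSeq on GRCm38.p6, where 20 of the 32 genes matched an entry, and each of the 4 ends at the base before the gene's start in the count tables. Letters are in capitals where a searched motif was found on either strand. The motifs were the cores bound by the Notch effector RBPJ (TGGGAA), ETS factors (CCGGAA), forkhead factors (TGTTTAC), hypoxia-inducible factors (ACGTG) and GATA factors (AGATAA), and none of the matches printed overlap.
Vegfa, chr17:46032378-46032627, minus strand: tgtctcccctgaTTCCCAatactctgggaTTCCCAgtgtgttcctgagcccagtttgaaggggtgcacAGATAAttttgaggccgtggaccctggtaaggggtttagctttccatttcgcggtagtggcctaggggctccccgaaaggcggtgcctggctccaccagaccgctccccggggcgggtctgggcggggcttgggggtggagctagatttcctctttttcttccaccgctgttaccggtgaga
Tek, chr4:94739039-94739288, plus strand: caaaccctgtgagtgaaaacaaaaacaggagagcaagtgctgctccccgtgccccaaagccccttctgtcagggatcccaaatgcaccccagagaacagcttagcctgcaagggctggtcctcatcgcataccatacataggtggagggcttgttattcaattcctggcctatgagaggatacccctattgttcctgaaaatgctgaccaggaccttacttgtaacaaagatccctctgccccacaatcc
Tie1, chr4:118489850-118490099, minus strand: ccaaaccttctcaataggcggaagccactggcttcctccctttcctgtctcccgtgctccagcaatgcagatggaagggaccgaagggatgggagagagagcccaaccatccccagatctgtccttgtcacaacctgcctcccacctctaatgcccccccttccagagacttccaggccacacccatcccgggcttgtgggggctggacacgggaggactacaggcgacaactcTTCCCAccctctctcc
Dll4, chr2:119325534-119325783, plus strand: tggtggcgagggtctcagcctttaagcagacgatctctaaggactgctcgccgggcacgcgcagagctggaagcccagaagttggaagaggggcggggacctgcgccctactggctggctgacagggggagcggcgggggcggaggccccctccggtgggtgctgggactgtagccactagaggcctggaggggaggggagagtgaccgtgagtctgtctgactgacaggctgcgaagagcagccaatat
The Vegfa promoter held the RBPJ core in 2 places, both on the reverse strand as TTCCCA, and the GATA core in 1. The Tie1 promoter held the RBPJ core in 1 place, with its last base 11 bases before the start. The Tek and Dll4 promoters held none of the motifs. The RBPJ core was present in 21.6% of 32851 mouse promoters of the same length and in 5 of the 24 promoters of these genes, since some genes have several starts. The ETS core was in 12% of all promoters and in 1 of the 24, that of Kdr. The hypoxia core was in 16.6% of all and in 1, at a second start of Vegfa. The GATA core was in 9.99% of all promoters and in 1 of the 24, and the forkhead core in 3.17% and in 0. These are matches of letters, and say nothing of binding.

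The libraries held 33145056 to 39257648 counts. The targeted receptors were read first. Insr measured 162, 158, 140.0 and 160.2 CPM (counts scaled to a common library total) in Control 1 to 4 and 112, 114, 130.0 and 148 CPM in DKO 1 to 4 (exact permutation test, two-sided, p = 0.0571). Igf1r measured 263.3, 246, 196 and 238 CPM in control and 203, 199.6, 205 and 247 CPM in DKO (exact permutation test, p = 0.371). The counts cover whole genes in all ovarian cells, so they check the labels weakly. Control 1, DKO 1 and DKO 2, whose titles carry the lower run of sample numbers, stood on the other side of the first principal component (38.3% of the variance) from the 5 libraries with the higher numbers. These sets are called the early and the late run below; what the numbers stand for is not given in the sources used here, and differences within each run are given beside the results. Control 1 and DKO 2 also held more RNA of oviduct and surface epithelium, at 2093 and 1275 CPM summed over 11 markers against 169 to 249.3 CPM in the others, and the part of this in the results was not tested. Adult beta-globin counts fell on different gene copies in different libraries.

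Of the 32 genes, 29 had counts enough to be tested, and 1 of them, Angpt1, was called higher in DKO by edgeR's quasi-likelihood test at an adjusted p under 0.05. None was called lower. Over all 16870 genes tested, 0.759% were called higher and 0.498% lower, so the 1 gene called, of 29, is too small a count to read against that background. At an unadjusted p under 0.05, 9 of the 29 were higher and 0 lower, against 8.43% and 6.98% of all genes. The estimated log2 fold change was above 0 in 25 of the 29, with Vwf, Ecscr, Angpt2 and Sox17 below 0. All genes were above 0 in 46.9% of cases. The median log2 fold change was 0.25 for the 29 genes and -0.02 for all genes. Most of these differences were small, and only Apln, Angpt1, Dll4, Aplnr and Tek lay above Kdr at 0.47.

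**Figure D1:**
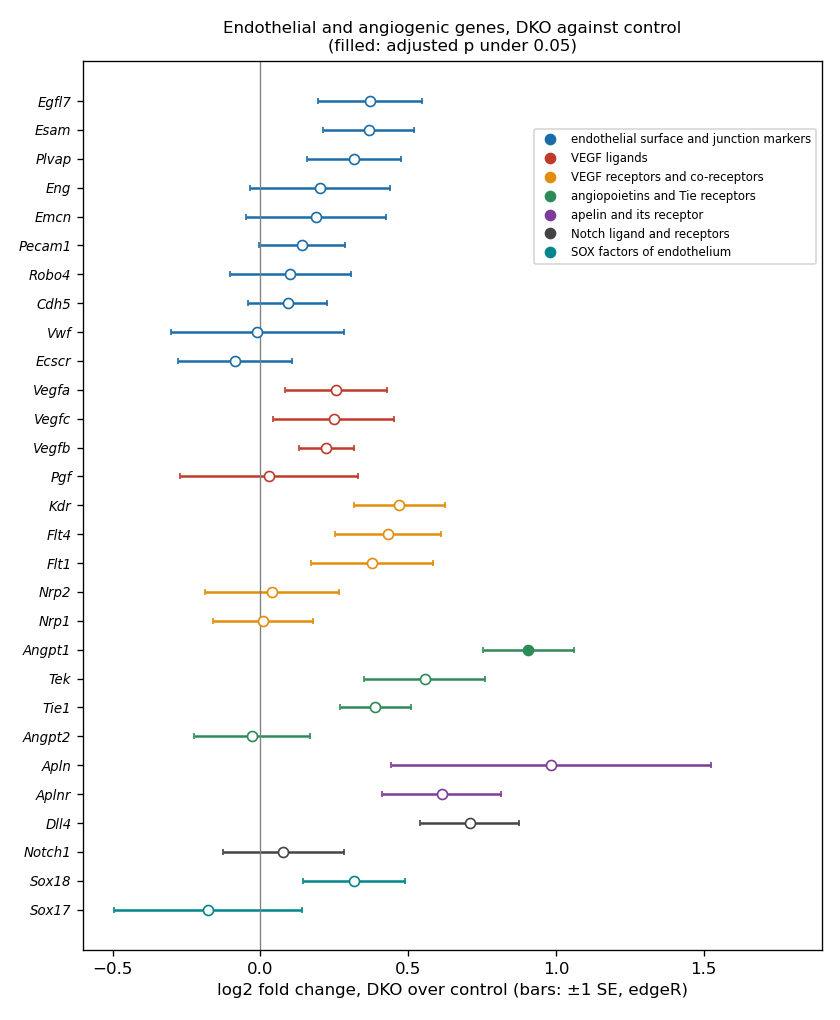
The log2 fold change of DKO over control (x axis) is drawn for each of the 29 tested genes, coloured by role, with a bar of 1 SE on each side from edgeR. Angpt1 at 0.91 is the filled point, Apln at 0.98 has the widest bar, and the surface markers lie between -0.09 and 0.37.

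The list is read as counts beside a background, with no test of the list. DESeq2 called 2 of the 29 (Angpt1 and Dll4), where it called 3.77% of all genes higher. Limma-voom with sample quality weights called 6 (Angpt1, Dll4, Egfl7, Kdr, Tek and Tie1), where it called 5.9% of all genes higher. Without Control 3 edgeR called 3 of the 29 and 506 of all genes. Without Control 2, Control 4, DKO 2, DKO 3 or DKO 4 it called 0 of the 29, where the counts over all genes were 2, 27, 66, 9 and 113. Without DKO 1 it called 78 of all genes and still 1 of the 29, Angpt1. The count among the 29 therefore did not simply follow the count over all genes.

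None of the surface and junction markers, which define the endothelial cell, was called. Of 11, 10 were tested, 8 lay above 0 and the median log2 fold change was 0.16. That median was 0.0974 without Control 1, 0.29 without DKO 1, 0.0869 without DKO 3 and 0.0442 without DKO 4, and 0.33 in the late run alone. At an unadjusted p under 0.05 edgeR put 1 higher and 0 lower, DESeq2 called 0 and limma-voom with quality weights 1. Pecam1, the adhesion molecule known as CD31, measured 103, 108, 122 and 137 CPM in control and 103, 119, 140.4 and 155 CPM in DKO. The groups overlapped over most of their range, and the log2 fold change was 0.14 ± 0.14 (SE; edgeR, adjusted p = 0.707). Cdh5, the cadherin that joins endothelial cells to each other, measured 135, 136, 154 and 175 CPM in control and 131, 151, 175 and 183 CPM in DKO. Its log2 fold change was 0.09 ± 0.13 (edgeR adjusted p = 0.802), and its lowest library was a DKO.

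Esam, a tight junction adhesion molecule, had the smallest p of the group. It measured 34.4, 37.9, 44.5 and 35.6 CPM in control and 37.6, 44.1, 57.8 and 56.9 CPM in DKO, with the late DKO libraries highest. Esam differed by a log2 fold change of 0.37 ± 0.15 (edgeR adjusted p = 0.286). Egfl7, a protein that endothelial cells secrete into their matrix, measured 44.5, 41.5, 65.3 and 35.6 CPM in control and 55.2, 62.0, 68.7 and 56.1 CPM in DKO. Control 3 alone of the controls reached the DKO values. Its log2 fold change was 0.37 ± 0.18 (edgeR adjusted p = 0.355), and the call changed with the test: the adjusted p was 0.0407 without Control 3 in edgeR and 0.0236 in limma-voom with quality weights. Plvap, the protein of the diaphragms in endothelial pores, was 28.9 ± 4.67 CPM in control and 36.0 ± 6.80 CPM in DKO (SD, n = 4 each), and 1 library, DKO 2 at 46.2 CPM, stood above the rest.

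The other markers showed no called difference. Eng, a TGF-beta co-receptor, Emcn, a sialomucin of veins and capillaries, and Robo4, an endothelial guidance receptor, had log2 fold changes of 0.20 ± 0.24, 0.19 ± 0.24 and 0.10 ± 0.20. Vwf, the clotting factor stored in endothelial granules, was at -0.01 ± 0.29 and Ecscr, a small endothelial surface protein, at -0.09 ± 0.19. The adjusted p of these 5 genes in edgeR ran from 0.750 for Eng to 0.991 for Vwf. The direction of Vwf and Ecscr turned under several alternative settings.

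Cldn5, the main claudin of endothelial tight junctions, had 0 counts in all 8 libraries, although Pecam1 and Cdh5 exceeded 100 CPM. Angptl4, a secreted inhibitor of lipoprotein lipase that acts on vessels, also had 0 counts, and Notch4, the Notch receptor of endothelium, had 2 counts in all, 1 each in DKO 1 and DKO 4. The annotation of the count tables places each of these 3 genes on more than 1 sequence (a chromosome plus an alternative or patch sequence), and each of the other 29 on 1. Of protein-coding genes placed on more than 1 sequence, 37.0% of 1010 had 0 counts in every library, against 14.8% of 20651 placed on 1. These 3 genes are therefore only listed at or near 0 here, and no level or fold is drawn from them.

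Among the VEGF ligands, 4 of 4 were tested, 0 were called and 4 lay above 0, with a median log2 fold change of 0.24. In edgeR 1 had an unadjusted p under 0.05, and DESeq2 and limma-voom called 0. Vegfa had the highest level per length of the 29 tested genes, at 56.4 ± 9.14 CPM per kb of exon in control (SD, n = 4). In CPM it measured 227, 260.0, 269 and 185 in control and 212, 342, 314 and 255 in DKO. DKO 2 and DKO 3 lay above all controls, and DKO 1 and DKO 4 among them. Its log2 fold change was 0.25 ± 0.17 (edgeR adjusted p = 0.542), and it was 0.25 within the early run and 0.27 within the late run.

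Hif1a, the oxygen-regulated factor that drives Vegfa transcription in low oxygen, fell from 655 ± 81.9 CPM to 405 ± 46.5 CPM, a log2 fold change of -0.69 ± 0.13 (edgeR adjusted p = 0.0414). That call was lost in the late run alone and without Control 2, Control 4 or any 1 of the DKO libraries, at adjusted p of 0.0513 to 0.162. Between the groups, the log2 fold change was above 0 for Vegfa, which was not called, and below 0 for Hif1a. A link between these genes was not tested.

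Vegfb, a ligand of Flt1 linked to fat uptake by endothelium, measured 29.5, 30.4, 32.3 and 29.7 CPM in control and 37.6, 35.7, 36.6 and 32.3 CPM in DKO. The groups did not overlap, though Control 3 and DKO 4 nearly touched, and 5.7% of all genes tested were likewise separated with DKO higher. The log2 fold change was small and precise, at 0.22 ± 0.09 (edgeR adjusted p = 0.282). Vegfc, the lymphatic growth factor, was at 0.25 ± 0.21. Pgf, the placental growth factor, was near the lower limit of what the depth resolves, with 33 to 65 counts per library and a log2 fold change of 0.03 ± 0.30.

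Among the VEGF receptors, 5 of 5 were tested, 0 were called and 5 lay above 0, with a median log2 fold change of 0.38. Without DKO 4 that median was 0.21, which was then also the value of Flt1. In edgeR 2 had an unadjusted p under 0.05, DESeq2 called 0 and limma-voom with quality weights 1. Kdr, the main signalling receptor for VEGF-A, measured 79.2, 77.9, 70.1 and 92.5 CPM in control and 83.0, 102, 122 and 137 CPM in DKO. DKO 1 lay among the controls and the other 3 DKO libraries above them all. For Kdr the log2 fold change was 0.47 ± 0.16 (edgeR adjusted p = 0.176), at 0.21 in the early run and 0.69 in the late run. Limma-voom with quality weights called Kdr, with an adjusted p of 0.0446.

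Flt1, the decoy-like receptor for VEGF-A, measured 37.0, 38.9, 34.6 and 50.9 CPM in control and 34.9, 46.7, 58.6 and 69.7 CPM in DKO. Both late DKO libraries exceeded every control, and DKO 1 did not. For Flt1 the log2 fold change was 0.38 ± 0.21 (edgeR adjusted p = 0.425). Flt4, the receptor for VEGF-C on lymphatic and sprouting vessels, measured 55.1, 41.5, 28.2 and 44.3 CPM in control and 58.2, 63.9, 52.8 and 53.2 CPM in DKO. Control 1 was the only control to reach the DKO range, and the log2 fold change was 0.43 ± 0.18 (edgeR adjusted p = 0.278). The co-receptors Nrp1 and Nrp2, which present VEGF and semaphorins to other receptors, were at 0.01 ± 0.17 and 0.04 ± 0.23, and their direction turned under several alternative settings.

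The angiopoietin system held the one called gene. Of its 5 genes 4 were tested, 1 was called higher and 3 lay above 0, with a median log2 fold change of 0.47, and of 0.72 in the late run alone. Angpt1 (gene 11600, chr15:42424667-42676977, minus strand, GRCm38.p5) measured 15.4, 14.5, 12.5 and 17.6 CPM in control and 22.7, 34.0, 27.8 and 27.8 CPM in DKO. Every DKO library exceeded every control. Angpt1 rose from 14.99 ± 2.11 CPM to 28.1 ± 4.62 CPM (SD, n = 4 each), a fold of 1.87 and a log2 fold change of 0.91 ± 0.15 (edgeR adjusted p = 0.0299). The exact two-sided permutation p on CPM was 0.0286, the smallest that 4 against 4 libraries can give. That value follows from the separation of the groups and adds nothing to it. Over all genes tested, 5.7% were likewise separated with DKO higher.

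The size of the Angpt1 difference was steady, and its call was not. The log2 difference was 0.85 within the early run and 0.92 within the late run, and the log2 fold change ran from 0.81 to 1.00 as each library was left out. The edgeR adjusted p passed 0.05 without Control 2 (0.132), Control 4 (0.0699), DKO 2 (0.0729), DKO 3 (0.095) or DKO 4 (0.0524), and in the late run alone (0.0658). With the replicate number as a block it was 0.0222, and in DESeq2 it was 1.76e-05.

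Angpt2, the antagonist that loosens vessels before they sprout or regress, was not called. It measured 84.3, 55.5, 43.8 and 58.8 CPM in control and 67.4, 49.8, 51.5 and 69.1 CPM in DKO, and its log2 fold change was -0.03 ± 0.20 (edgeR adjusted p = 0.965). The lowest and the highest library were both controls. Per length, Angpt2 stood well above Angpt1 in control, at 17.0 ± 4.79 against 3.40 ± 0.48 CPM per kb of exon, and Angpt1 reached 6.38 ± 1.05 CPM per kb in DKO. The log2 difference of Angpt1 minus Angpt2 in CPM was -2.45, -1.94, -1.81 and -1.74 in control and -1.57, -0.55, -0.89 and -1.31 in DKO. The groups did not overlap in this balance, whose means differed by 0.90. With Angpt2 at -0.03, that value largely repeats the log2 fold change of Angpt1 (0.91) and is not a separate result.

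The receptors of these ligands read higher on average in DKO without being called. Tek, the angiopoietin receptor, measured 26.8, 21.9, 18.0 and 30.3 CPM in control and 25.0, 34.0, 38.6 and 44.9 CPM in DKO. DKO 1 lay inside the control range and the others above it, and the log2 fold change was 0.56 ± 0.21 (edgeR adjusted p = 0.224). Tie1, the partner receptor of Tek with no ligand of its own settled, measured 45.7, 41.8, 41.8 and 44.4 CPM in control and 44.4, 57.6, 61.7 and 63.8 CPM in DKO. The controls lay close together, and DKO 1 lay with them. The Tie1 log2 fold change was 0.39 ± 0.12 (edgeR adjusted p = 0.157). Both receptors differed more within the late run, by 0.86 for Tek and 0.56 for Tie1, than within the early run, by 0.12 and 0.14, and this gap was not tested. Limma-voom with quality weights called both, with adjusted p of 0.0471 for Tek and 0.0319 for Tie1.

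**Figure D2:**
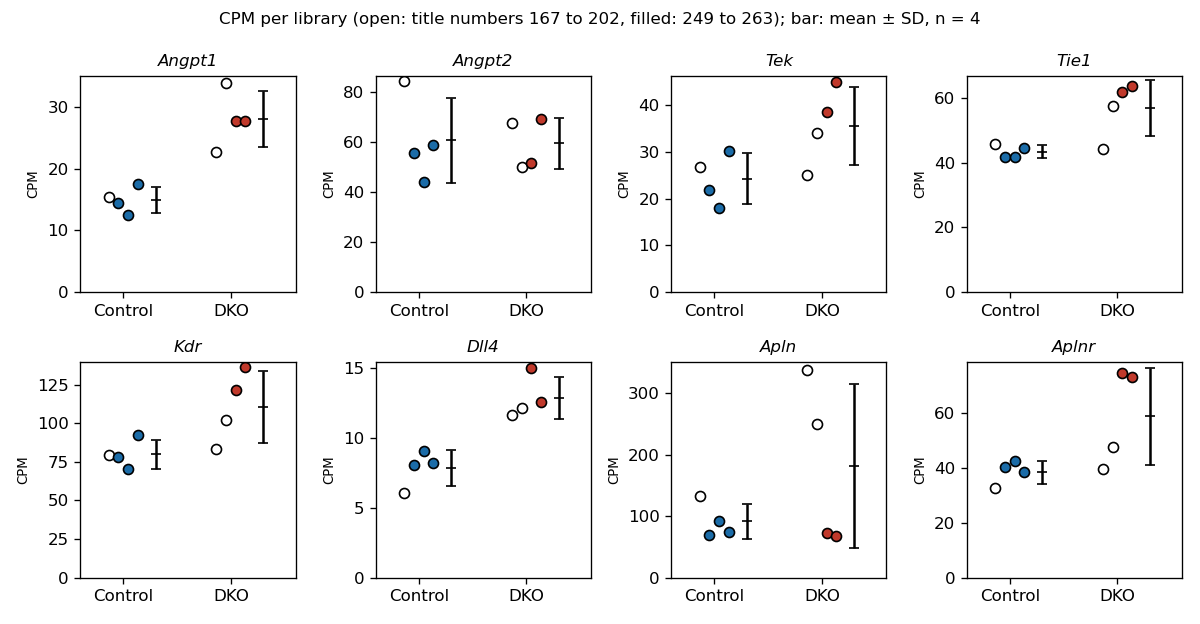
CPM (y axis, from 0) of 8 genes in each control and DKO library, with open points for the early run, filled points for the late run, and a bar for the mean ± SD (n = 4). The groups do not overlap for Angpt1 and Dll4, and the Apln values of 337 and 249.9 CPM are both early DKO libraries.

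Apelin and its receptor both had estimates above 0 but differed in different libraries. Apln measured 132, 69.2, 91.3 and 74.8 CPM in control and 337, 249.9, 72.1 and 66.9 CPM in DKO. The highest libraries were DKO 1 and DKO 2, the early run, and the late DKO libraries lay at the bottom with Control 2. The log2 fold change of 0.98 ± 0.54 (edgeR adjusted p = 0.443) therefore joined a difference of 1.13 in the early run, which has 1 control, with one of -0.17 in the late run. Fitted on the late run alone, the log2 fold change of Apln was -0.16 ± 0.16 (edgeR adjusted p = 0.817).

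Aplnr measured 32.5, 40.2, 42.4 and 38.4 CPM in control and 39.7, 47.6, 74.6 and 73.1 CPM in DKO. Here the late DKO libraries were highest, and DKO 1 lay among the controls. The log2 fold change was 0.61 ± 0.20 (edgeR adjusted p = 0.175). With a block for the run it was 0.71 ± 0.11 (adjusted p = 0.0166), and in the late run alone 0.89 ± 0.13 (adjusted p = 0.0256). In those fits 1.82% and 0.599% of all genes were called higher. The difference within the early run was 0.42.

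Among the Notch genes, Dll4 was nearest to a call after Angpt1. Dll4 (gene 54485, chr2:119325784-119335666, plus strand, GRCm38.p5), whose promoter is printed above, measured 6.02, 8.05, 9.07 and 8.21 CPM in control and 11.6, 12.1, 14.98 and 12.5 CPM in DKO. No control reached the lowest DKO library, a separation that 5.7% of all genes tested showed with DKO higher. The means were 7.84 ± 1.29 and 12.8 ± 1.49 CPM (SD, n = 4 each), and the log2 fold change was 0.71 ± 0.17 (edgeR adjusted p = 0.0785). The adjusted p fell under 0.05 in DESeq2 (0.00166), in limma-voom with quality weights (0.0114), with the run as a block (0.0215), with the replicate number as a block (0.0345, where 2.14% of all genes were called higher) and without Control 3 (0.0489). In every other setting the adjusted p of Dll4 stayed above 0.05, among them limma-voom (0.073) and the late run alone (0.147). Without any 1 library other than Control 3 it was 0.0874 to 0.218. The difference was 0.97 within the early run and 0.70 within the late run. Notch1, a receptor for Dll4, was at 0.08 ± 0.20 (edgeR adjusted p = 0.896).

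The SOX factors, which act early in arterial endothelium and in lymphatic fate, were not called. Sox18 had a log2 fold change of 0.32 ± 0.17 (edgeR adjusted p = 0.424). Sox17 had one of -0.18 ± 0.32, and its extremes were both early libraries: Control 1 at 17.5 CPM and DKO 1 at 5.00 CPM. Within the late run Sox17 differed by 0.28.

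Across the genes, the DKO libraries were not alike. Summed over all 32 genes, the controls held 1615 to 1778 CPM and the DKO libraries 1852 to 2193 CPM, without overlap. That separation rested on Apln in DKO 1: without Apln, a sum added after seeing the data, DKO 1 held 1515 CPM, below the controls at 1518 to 1704 CPM, and the other DKO libraries 1813 to 2126 CPM. Of the 29 tested genes, DKO 4 was the highest of the 8 libraries for 11, DKO 3 for 6, DKO 2 for 5 and DKO 1 for 3. DKO 1 was also the lowest for 5. The median deviation from the mean of the 8 libraries on the log2 scale was -0.20 in DKO 1, 0.11 in DKO 2, 0.29 in DKO 3 and 0.33 in DKO 4. In control it was -0.18, -0.21, -0.13 and -0.06, so DKO 1 sat with the controls on this measure too.

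Within the early run 21 of the 29 genes lay above 0, with a median log2 difference of 0.14. Within the late run 28 did, with a median of 0.36, against -0.02 for all genes. In the late run both DKO libraries exceeded all 3 controls for 18 of the 29 genes, and 14.9% of all genes were so placed. In the early run both DKO libraries exceeded the 1 control for 15 genes, against 40.3% of all genes.

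**Figure D3:**
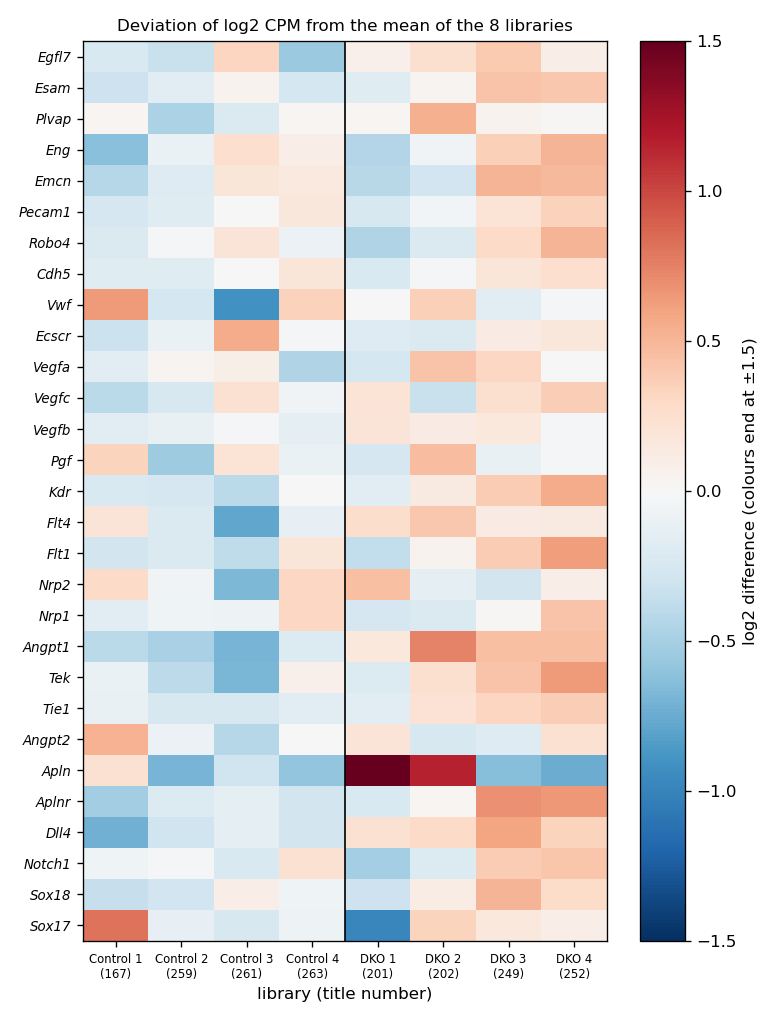
Each cell is the log2 CPM of a gene (rows, ordered by role) in a library (columns) minus its mean over the 8 libraries, red above and blue below. DKO 3 and DKO 4 are red in most rows, DKO 1 is mixed, and Apln runs opposite to most rows in the DKO libraries.

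Each gene was also read relative to an endothelial index, the mean log2 CPM of Pecam1, Cdh5, Esam and Ecscr. The index was 5.76, 5.87, 6.18 and 6.05 in control and 5.82, 5.97, 6.26 and 6.32 in DKO. Its means of 5.96 ± 0.19 and 6.09 ± 0.24 (SD, n = 4 each) differed by 0.13, less than the spread within a group. Relative to the index, 19 of the 29 genes lay above 0, with a median difference of 0.11. The same share over all genes was not computed, so that count has no background. The groups did not overlap for 5 of the 29 genes: Angpt1 at 0.77, Dll4 at 0.59, Aplnr at 0.44, Kdr at 0.32 and Esam at 0.22. Relative to the same index, 1.7% of all genes tested were separated with DKO higher. Pecam1, Cdh5, Esam and Ecscr make up the index and are among the 29. Their own differences from it are therefore tied to one another, that of Esam included. Relative to the index Kdr read 0.55, 0.41, -0.05 and 0.49 in control and 0.56, 0.70, 0.66 and 0.77 in DKO, so that Control 1 and DKO 1 nearly met. This is a description of 8 libraries with no test.

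The levels themselves spanned a wide range. Per kb of exon, Vegfa was followed in control by Eng at 46.9 ± 11.5, Cdh5 at 37.1 ± 4.62, Emcn at 30.9 ± 6.03 and Pecam1 at 30.2 ± 3.99 CPM per kb. The control libraries of neighbours in this order overlapped. Kdr at 14.6 ± 1.70 CPM per kb stood above Flt1 at 5.67 ± 1.02, and Tie1 at 11.2 ± 0.51 above Tek at 5.14 ± 1.15, by more than the spread between control libraries. At the lower end lay Dll4 at 2.27 ± 0.38, Sox17 at 2.05 ± 0.80, Vwf at 1.59 ± 0.69 and Pgf at 0.64 ± 0.17 CPM per kb.

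**Figure D4:**
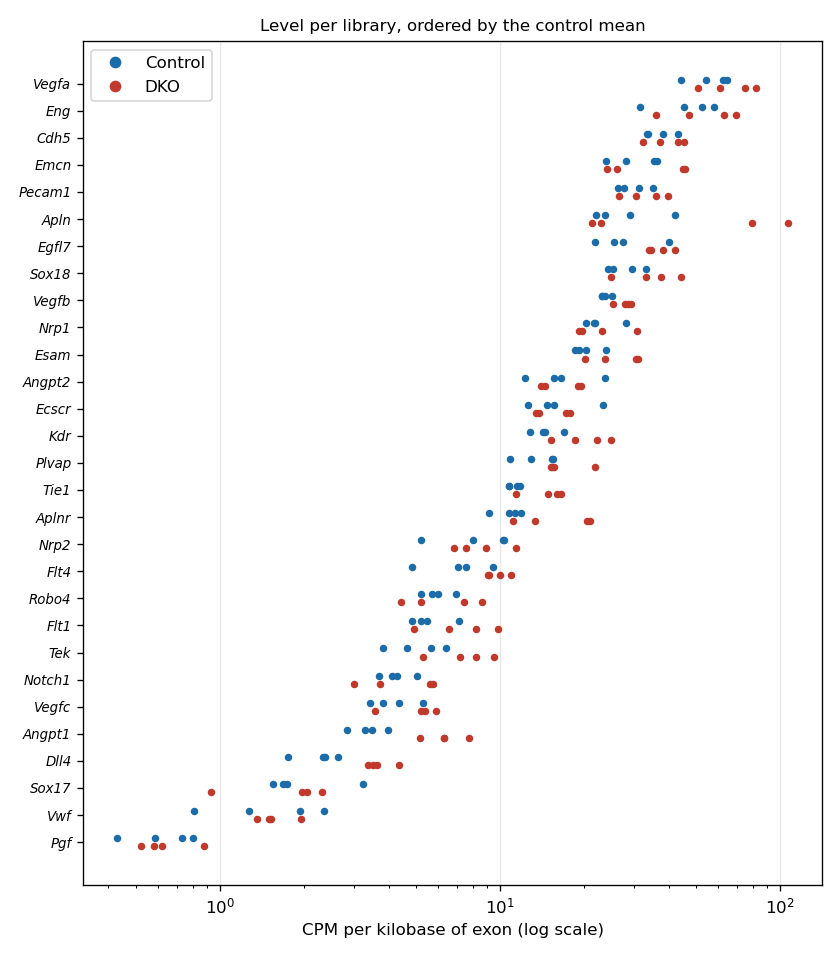
CPM per kb of exon (x axis, log scale) of the 29 tested genes in each control and DKO library, ordered by the control mean. Vegfa is at the top with a control mean of 56.4 CPM per kb and Pgf at the bottom with 0.64 CPM per kb.

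Genes of the same pathways and cells outside the 32 were read from lists. Of 30 other endothelial genes, 0 were called, 22 lay above 0 and the median log2 fold change was 0.20. The smallest p in that list was on the other side, for Cav1, the coat protein of caveolae. Cav1 was 239 ± 34.0 CPM in control and 162 ± 27.3 CPM in DKO. Its log2 fold change was -0.56 ± 0.14 (edgeR adjusted p = 0.101). Cd34 and Arhgef15 of the same list were singled out after their values were seen. Cd34 had a log2 fold change of -0.88 ± 0.35 (edgeR adjusted p = 0.258). Arhgef15 had one of 0.68 ± 0.18 (edgeR adjusted p = 0.112). With the run or the replicate number as a block, the adjusted p were 0.0378 and 0.0245 for Cd34 and 0.0102 and 0.0243 for Arhgef15. Summed levels of the list overlapped, at 1346 to 1916 CPM in control and 1099 to 1774 CPM in DKO. Of 36 other genes of the VEGF, angiopoietin, apelin and Notch pathways, 0 were called higher and 1 lower, 15 lay above 0 and the median was -0.07. Their called gene was Maml2, a coactivator that joins Notch and RBPJ on DNA. Maml2 fell from 31.2 ± 0.79 CPM to 20.6 ± 1.44 CPM, a log2 fold change of -0.60 ± 0.10 (edgeR adjusted p = 0.0269). That call was lost without Control 2, Control 4, DKO 1, DKO 2 or DKO 3 and in the late run alone, at adjusted p of 0.0683 to 0.159.

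Beside Dll4, 7 Notch genes of this list were singled out after their values were seen. Nrarp, a target of Notch that feeds back on it, measured 6.63, 7.01, 12.0 and 7.41 CPM in control and 13.4, 13.3, 15.6 and 13.2 CPM in DKO, with a log2 fold change of 0.75 ± 0.20 (edgeR adjusted p = 0.112). Maml3, a coactivator like Maml2, measured 27.5, 40.5, 29.7 and 44.9 CPM in control and 20.6, 21.6, 21.4 and 22.5 CPM in DKO, with one of -0.73 ± 0.16 (edgeR adjusted p = 0.0642). Both sets of groups were apart, and edgeR called neither. Of all 16870 genes tested, 1558 were apart in either direction, and 5.7% were apart with DKO higher. DESeq2 called both, with adjusted p of 0.0105 for Nrarp and 0.00191 for Maml3. Dll1, another Notch ligand, was also apart, at 2.51 ± 0.50 CPM in control and 4.20 ± 0.61 CPM in DKO (edgeR adjusted p = 0.165, DESeq2 adjusted p = 0.028). Other targets of Notch lay on both sides of 0: Heyl at 0.30 ± 0.10 and Hey1 at 0.37 ± 0.25, against Hes1 at -0.17 ± 0.19 and Hey2 at -0.30 ± 0.18, and neither edgeR (adjusted p of 0.190 to 0.725) nor DESeq2 called any of them.

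Of 12 angiogenesis inhibitors 0 were called, with 4 above 0 and a median of -0.09. The smallest p there belonged to Thbs1, thrombospondin 1, at 1937 ± 636 CPM in control and 953 ± 315 CPM in DKO (edgeR adjusted p = 0.126). Of 15 other angiogenic growth factors and regulators, 2 lay above 0 and the median was -0.53, with Hif1a called lower. At an unadjusted p under 0.05 in edgeR, 0 were higher and 5 lower, against 8.43% and 6.98% of all genes. Summed over the list, Hif1a included, control held 1366 to 1728 CPM and DKO 1029 to 1264 CPM, without overlap.

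Markers of the other cells of a whole ovary were read in the same fit. Pericyte and smooth muscle markers had 0 of 13 called, a median of -0.18, and summed levels of 2265 to 4038 CPM in control and 1876 to 3097 CPM in DKO. Pdgfrb, the receptor that recruits pericytes to vessels, had the smallest p, at 92.7 ± 8.31 and 116 ± 11.8 CPM (edgeR adjusted p = 0.173). Lymphatic markers had 0 of 7 called and a median of 0.04, with sums of 327 to 525 CPM in control and 416 to 476 CPM in DKO. Their smallest p was that of Lyve1, the hyaluronan receptor of lymphatic vessels, at 42.6 ± 6.70 and 33.1 ± 2.95 CPM (edgeR adjusted p = 0.204). Red blood cell genes had 0 of 8 called and a median of 0.33, with sums of 313 to 681 CPM in control and 239 to 893 CPM in DKO. The list held the beta-globin copies Hbb-bs and Hbb-bt and not Hbb-b1 and Hbb-b2, on which Control 1, DKO 1, DKO 2 and DKO 3 had most of their beta-globin counts. Over all 4 copies the groups did not overlap, at 297 to 383 CPM in control and 521 to 1141 CPM in DKO, and the part of blood in the angiogenic values was not tested. Hba-a2, an alpha-globin, had their smallest p, at 59.5 ± 10.5 and 106 ± 38.2 CPM (edgeR adjusted p = 0.145).

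Luteinizing cells were the one cell type whose marker list held called genes. Of 10 genes, 3 were called higher: Ptgfr, the prostaglandin F receptor, Hsd3b1, a steroid dehydrogenase, and Mgarp, a mitochondrial protein of steroid-producing cells. Ptgfr rose from 42.1 ± 16.7 to 216 ± 66.5 CPM, Hsd3b1 from 2656 ± 646 to 5000 ± 599 CPM and Mgarp from 329.9 ± 45.6 to 573 ± 106 CPM (edgeR adjusted p of 0.0173, 0.0477 and 0.0453). Over all genes tested, edgeR called 0.759% higher. The list did not all go the same way: 7 of its 10 genes had estimates above 0, and 3 had estimates under it. Its median was 0.66. At an unadjusted p under 0.05 in edgeR, 6 were higher and 1 lower. Summed over the list, control held 9359 to 15940 CPM and DKO 16911 to 22410 CPM. The Ptgfr call was lost without Control 2, Control 4 or DKO 3 and with the replicate number as a block (adjusted p of 0.0534 to 0.08), and those of Hsd3b1 and Mgarp without any 1 library other than Control 3 and in the late run alone (0.0605 to 0.214). With non-robust dispersions the Hsd3b1 call was lost as well (adjusted p = 0.0532). The part of this list in the angiogenic values was not tested.

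Granulosa markers had 0 of 12 called, with a median of 0.02 and sums of 4139 to 5556 CPM in control and 4646 to 6077 CPM in DKO. Theca and stroma markers had 0 of 12 called, a median of 0.02 and sums of 3974 to 5788 CPM and 4767 to 6017 CPM. Their smallest p were those of Foxl2, a granulosa transcription factor, at 127 ± 19.3 and 190.0 ± 23.2 CPM (edgeR adjusted p = 0.0716), and Lhcgr, the luteinizing hormone receptor, at 335 ± 138 and 732 ± 121 CPM (adjusted p = 0.0893). Leukocyte markers had 0 of 10 called and a median of -0.32, with S100a9, a neutrophil protein, at 4.39 ± 4.52 and 0.82 ± 0.28 CPM (adjusted p = 0.14). Oocyte markers had 0 of 12 called and a median of -0.36, with the smallest p at Oosp1 (adjusted p = 0.524). Oviduct and surface epithelium markers had 0 of 11 called and a median of -0.33, with the smallest p at Krt18 (adjusted p = 0.645).

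At an unadjusted p under 0.05 in edgeR, the lists with no called gene held 4 higher and 2 lower for other endothelial genes, 1 and 2 for inhibitors, 2 and 3 for pericytes and smooth muscle, and 0 and 1 for lymphatic endothelium. They held 3 and 0 for red blood cells, 0 and 2 for leukocytes, 1 and 0 each for granulosa cells and for theca and stroma, and 0 and 0 for oocyte and for oviduct and surface epithelium. Among these lists DESeq2 called 1 higher and 1 lower of the other endothelial genes and 1 and 2 of the inhibitors. It called 2 and 0 of the red blood cell genes and 0 and 2 of the leukocyte markers. Of the granulosa and of the theca and stroma markers it called 1 and 0 each. It called none of the pericyte and smooth muscle, lymphatic, oocyte, or oviduct and surface epithelium markers. In the lists with an edgeR call, DESeq2 called 5 higher and 1 lower of the luteinizing markers. It called 2 and 3 of the other VEGF, angiopoietin, apelin and Notch pathway genes, and 0 and 2 of the other angiogenic growth factors.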

How the data were processed

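RNA of whole ovaries from 8 mice was sequenced from libraries made with a stranded mRNA kit, per the labels' protocols. The authors deposited raw counts per gene for each library, made with featureCounts 1.5.2 of Subread with the reverse strand setting on the RefSeq annotation of GRCm38.p5, per the file headers. STAR 2.4.2a, Trimmomatic (0.33 and 0.36), bcl2fastq 2.17.1.14 and edgeR 3.12.0 are named in the submitters' processing notes. Multi-mapping options were not given in the sources used here, so genes with near-identical copies are uncertain. Exon lengths are a column of the same tables. RefSeq names (GRCm38.p6) matched 40290 of 41591 gene IDs.

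Groups and replicate numbers come from the sample descriptions, 4 against 4, and no library was left out. The 32 genes and all lists were chosen with earlier results of these data known. Genes passing filterByExpr (16870) were tested in R 4.3.3 with edgeR 4.0.16 (TMM factors, robust quasi-likelihood F-test, two-sided, Benjamini-Hochberg over all genes, threshold 0.05). CPM use TMM-scaled library sizes, and the SE is the log2 fold change over the square root of F. DESeq2 1.42.0 and limma 3.58.1 were alternatives, with other scalings and filters, blocks, the late run alone and each library left out. Given per library were Insr, Igf1r, genes called by edgeR, DESeq2 or limma-voom with quality weights, the 10 smallest p and 12 genes set by name; other lists gave their called genes and the smallest p. Ahsp, in the red blood cell list, was not matched. On data simulated for DKO against control over 16625 genes, edgeR recovered 22.4% of 1.5-fold, 79.1% of 2-fold and 95.5% of 4-fold changes, and 3.68% of its calls were false. The simulation drew each gene independently, without the early and late runs or differences in tissue, and changed only genes above a set level. Its rates hold for that setting and are not rates for the real libraries. Libraries of a group differed beyond sampling noise (reduced chi-square 22.9 to 129). Tables and figures used Python 3.11.15.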

Additional observations from a re-analysis of the deposited data

Results flagged for a closer look

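Outlying libraries were sought in 58 groups of 4 libraries by the gap between the most extreme library and its neighbour, and 2 groups passed; chance flags about 1 in 20 groups. Plvap measured 46.2 CPM in DKO 2, where the other DKO libraries lay between 32.3 and 33.0 CPM, a gap of 0.949 of the range. Sox17 measured 17.5 CPM in Control 1, where the other controls lay between 8.33 and 9.36 CPM, a gap of 0.887 of the range. Both libraries are those with the most RNA of oviduct and surface epithelium, and the part of that RNA in these values was not tested.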

How the results depend on the processing

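Over 36 named genes and 20 alternative settings, 619 of 720 fits kept the direction and the side of the threshold, 40 lost the call, 22 gained one and 39 changed direction. Only Angpt1, Maml2, Hif1a, Ptgfr, Hsd3b1 and Mgarp were called in the main edgeR fit and could lose a call. All 40 losses fell on these genes, and most of the 720 fits had no call to lose. The count of all genes called, 212 in edgeR, was 1107 in DESeq2, 1651 in limma-voom with quality weights and 526 with the run as a block, and ranged from 2 to 506 as each library was left out. The count among the 29 genes, 1 in edgeR, was 2, 6 and 3 in those settings and ranged from 0 to 3. Their median of 0.25 was 0.35 in limma-voom with quality weights and 0.37 in the late run alone, and ranged from 0.20 to 0.35 as each library was left out. The causes were not tested.

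Whether the replicate numbers pair the libraries was not settled. Deviations of same-numbered libraries from their group means correlated at 0.16, -0.36, 0.31 and 0.47. Of the 4 controls, 2 (3 and 4) correlated best with their own number. So few correlations cannot decide the question, and the main fit used no pairing. With the replicate block edgeR called 743 genes and 2 of the 29, adding Dll4 to Angpt1. With that block Vwf was at 0.0873 and Nrp1 at -0.0066.

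Directions that turned belonged to genes near 0 that were called nowhere, and to Apln. Vwf, at -0.01, was at 0.14 in limma-voom with quality weights, 0.0898 in limma-voom, 0.12 in the late run alone and 0.0014 both with no filter and with upper quartile factors. Ecscr was at 0.0223 with the run as a block and 0.0701 with quality weights. Nrp1 was at -0.007 in limma-voom, Nrp2 at -0.0342 with the run as a block and -0.0149 with quality weights, and Pgf at -0.0458 with the run as a block. In the late run alone Angpt2 was at 0.21, Sox17 at 0.29 and Apln at -0.16. As each library was left out, log2 fold changes ranged from -0.23 to 0.26 for Vwf, -0.0747 to 0.24 for Robo4, -0.18 to 0.12 for Ecscr, -0.14 to 0.17 for Pgf, -0.16 to 0.12 for Nrp1, -0.13 to 0.16 for Nrp2, -0.15 to 0.19 for Angpt2, -0.0588 to 0.23 for Notch1 and -0.31 to 0.15 for Sox17. Depth limits Pgf, with 33 to 65 counts per library.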

Other observations

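Adult beta-globin counts fell on different gene copies in different libraries, although the labels give 1 strain. Hbb-bs measured 105, 323, 306 and 253 CPM in Control 1 to 4 and 0.61, 1.06, 255 and 442 CPM in DKO 1 to 4. Hbb-b1 measured 156, 0.71, 0.91 and 0.79 CPM in control and 418, 880.1, 372 and 1.12 CPM in DKO. Control 1 and DKO 3 held both copies, DKO 1 and DKO 2 mainly Hbb-b1, and the other 4 libraries Hbb-bs. Summed over the 4 adult beta-globin rows, control held 297 to 383 CPM and DKO 521 to 1141 CPM. These near-identical copies share reads, so their exact levels are uncertain. The split between libraries was nonetheless wide, with Hbb-bs and Hbb-b1 at 323 and 0.71 CPM in Control 2 and 0.61 and 418 CPM in DKO 1. It was also uneven between the groups, with Hbb-b1 high in Control 1, DKO 1, DKO 2 and DKO 3. What the split stands for, and whether it moves with the angiogenic genes, was not tested.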
